A study of Mus musculus with 15 samples.

Results

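The 10 genes described here belong to the core of naive pluripotency in the mouse: Nanog, Esrrb, Tfcp2l1, Nr0b1, Prdm14, Zfp42, Tcl1, Klf2, Klf4 and Klf5. They were chosen by symbol, through the Entrez Gene ID that names each probe set, and each had exactly 1 probe set among the 25206 on the array. Of the 10, 9 code for regulators of transcription, and Tcl1 codes for a co-activator of the kinase AKT. The samples came from a study that directed mouse induced pluripotent stem cells (iPSCs) towards smooth muscle and measured total RNA on Affymetrix Mouse Gene 2.0 ST arrays. The 15 samples fell into 5 groups of 3. GFP+ smooth muscle cells, isolated as primary cells from the aorta of Acta2hrGFP mice, served as the study's positive controls. In culture, undifferentiated iPSCs were taken at day 0, cells sorted for the mesodermal receptor Kdr (also called Flk1) at day 5, and cells sorted as GFP+ or GFP- at day 13. All GFP sorts used Acta2hrGFP, a green fluorescent protein reporter for Acta2, the smooth muscle actin gene. The reporter is read from the activity of a single gene, and Acta2 itself is also active in other contractile cells. Mouse strain and age and the number of iPSC clones are not given in the sources used here. The labels name the triplicates as biological without saying what was repeated, so p-values rest on the spread between these samples. By the markers, Kdr averaged 9.64 on the log2 scale in day 5 cells and 3.24 at day 0, and no Kdr- cells were analysed here. Acta2 averaged 12.10 in aortic cells, 11.32 in GFP+ cells and 10.67 in GFP- cells, and the sorts did not differ in it past the threshold (limma, adjusted p = 0.151). Each cultured sample carries the number 3, 5 or 6, and the aortic samples carry 1, 2 and 3.

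Mouse pluripotent cells hold a naive state through a mesh of factors that bind one another's genes. The cytokine LIF feeds the mesh through STAT3, which acts mainly on Klf4 and Tfcp2l1, while WNT signalling relieves the repressor TCF7L1 from Esrrb and other targets. Nanog, Esrrb and the Klf factors keep the mesh running, Prdm14 restrains FGF signalling and DNA methylation, and Zfp42 (Rex1) and Nr0b1 (Dax1) are widely used as marks of the state. The network is dismantled when cells leave for the germ layers. Klf2, Klf4 and Klf5 also have lives outside it: Klf2 is induced by flow in endothelium, Klf4 represses contractile genes in smooth muscle that changes its phenotype, and Klf5 is active in epithelia and in proliferating vascular smooth muscle.

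To show where such factors could bind close to these genes, the 250 bases before the annotated start were taken from RefSeq (GRCm38.p6). Windows were matched for 8 of the 10 genes, all but Klf5 and Prdm14. The 4 windows below are those of Nanog and Zfp42, which carry letters of pluripotency motifs, and of Klf2 and Klf4, whose levels were high in both iPSCs and aortic cells. They are written 5′ to 3′ on the strand of the gene, and capitals mark letters that match a searched motif. Nanog lies on the plus strand at chr6:122707239-122707488, Zfp42 on the minus strand at chr8:43307010-43307259, Klf2 on the plus strand at chr8:72318812-72319061 and Klf4 on the minus strand at chr4:55532476-55532725.
Nanog: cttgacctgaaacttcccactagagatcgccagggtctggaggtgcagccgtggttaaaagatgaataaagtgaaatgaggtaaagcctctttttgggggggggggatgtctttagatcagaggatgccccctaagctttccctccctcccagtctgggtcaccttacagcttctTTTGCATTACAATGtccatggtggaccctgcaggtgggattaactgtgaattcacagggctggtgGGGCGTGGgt
Zfp42: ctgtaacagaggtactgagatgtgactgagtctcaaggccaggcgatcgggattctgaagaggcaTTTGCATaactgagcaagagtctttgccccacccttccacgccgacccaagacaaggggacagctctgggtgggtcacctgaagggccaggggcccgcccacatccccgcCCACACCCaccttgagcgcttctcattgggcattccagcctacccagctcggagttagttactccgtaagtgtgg
Klf2: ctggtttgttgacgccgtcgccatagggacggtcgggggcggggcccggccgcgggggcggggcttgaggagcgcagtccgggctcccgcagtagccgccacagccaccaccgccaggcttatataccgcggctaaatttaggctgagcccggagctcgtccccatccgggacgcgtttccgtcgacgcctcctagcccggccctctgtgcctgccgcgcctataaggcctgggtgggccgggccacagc
Klf4: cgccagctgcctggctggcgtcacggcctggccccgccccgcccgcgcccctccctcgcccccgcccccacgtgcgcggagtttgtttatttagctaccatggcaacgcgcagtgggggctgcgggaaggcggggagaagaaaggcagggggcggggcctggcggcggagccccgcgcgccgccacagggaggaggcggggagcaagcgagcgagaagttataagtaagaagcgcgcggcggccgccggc

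Short motifs and a composite of 2 of them were searched on both strands in all 32851 promoter windows of the table. The octamer core ATGCAAA, read by POU factors such as Oct4, stood in 4.12% of all windows and in those of Nanog and Zfp42, in Zfp42 185 to 179 bases before the start. The SOX core ACAATG stood in 10.7% of all windows and, among the 8 genes, in those of Nanog. In the printed Nanog window the octamer core, read on the other strand as TTTGCAT, lies 75 to 69 bases before the start. It is closely followed, but not adjoined, by a SOX core at 67 to 62 bases. The composite TTTGCATNACAATG, which overlaps both single motifs, was found in 2 windows of the whole table, both of them Nanog's. The printed Nanog window and the other one, at chr6:122707315-122707564, overlap and hold the same site. The KLF box GGGNGTGG stood in 15.9% of all windows and in those of Nanog, Tfcp2l1 and Zfp42, in Zfp42 as its reverse complement 75 to 68 bases before the start. The ESRRB site AAGGTCA (4.08% of all windows), the STAT motif TTCCNGGAA (0.913%) and the CArG box of serum response factor (1.47%) were in none of the windows of the 8 genes. The Klf2 and Klf4 windows held none of the searched motifs and had a GC content of 71.2% and 74%, against a median of 52.4% over all windows. A match is a run of letters and not a bound site, and enhancers lie outside these windows.

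All 10 genes were high in day 0 iPSCs and all 10 fell by day 5 in the Kdr+ cells. The deposited values are log2 expression values made by RMA, so a difference of 1 is a 2-fold change, and tests used limma with p-values adjusted over all 25206 probe sets of a comparison and called below 0.05. The comparison of day 5 with day 0 called 13.9% of all probe sets lower and 14.9% higher. The median change of the 10 genes was -4.17, against -0.01 for all probe sets. In all 10 genes each day 5 sample lay below each day 0 sample, a separation downwards that 22.6% of all probe sets showed. In bulk samples, fewer cells that hold a transcript and less of it per cell cannot be told apart.

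**Figure D1:**
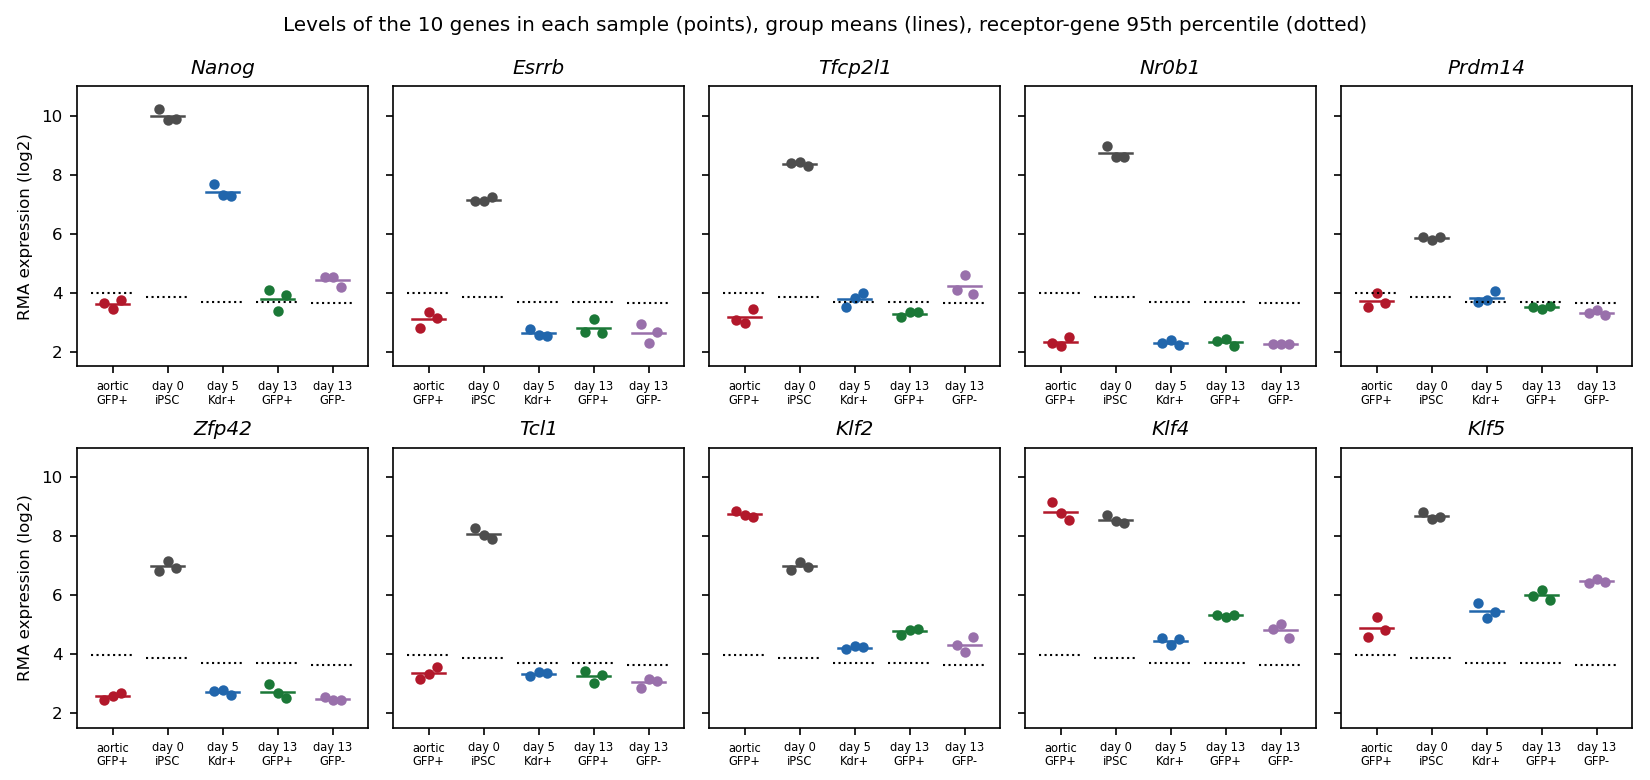
Log2 RMA value (vertical axis) of each of the 10 genes in each sample (points) and the mean of each group (short lines), for aortic GFP+, day 0 iPSC, day 5 Kdr+, day 13 GFP+ and day 13 GFP- samples, 3 per group. The dotted line in each group is the 95th percentile of 1350 olfactory and vomeronasal receptor genes, which mark the low end of the scale. Klf2 and Klf4 are high at both day 0 and in the aorta, and Nanog keeps a day 5 mean of 7.42 before it falls further by day 13.

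Nr0b1, an orphan receptor that binds Oct4 and Nanog, ended at the low end of the scale. Its log2 values were 2.30, 2.38 and 2.24 at day 5, against 8.98, 8.60 and 8.59 at day 0. The groups did not overlap. The change was -6.42 (SE 0.129), a measured loss of 85.6-fold (limma, adjusted p = 4.04e-14). Tcl1, which raises AKT activity and proliferation in mouse stem cells, had 3.27, 3.38 and 3.36 at day 5, against 8.26, 8.02 and 7.89 at day 0. Its loss was 26.4-fold, a change of -4.72 (SE 0.149, limma, adjusted p = 3.17e-12). The day 5 means of Nr0b1, Tcl1, Esrrb and Zfp42 lay below the 95th percentile of the olfactory and vomeronasal receptor genes (the receptor mark), so their folds are lower bounds and are not ranked.

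Tfcp2l1, a target of LIF and STAT3, had 3.52, 3.83 and 3.97 at day 5, against 8.39, 8.41 and 8.29 at day 0. Esrrb, a nuclear receptor that holds the naive state together with Nanog, had 2.77, 2.58 and 2.53 at day 5, against 7.09, 7.10 and 7.23 at day 0. Zfp42, a zinc finger factor, had 2.76, 2.79 and 2.62 at day 5, against 6.83, 7.15 and 6.93 at day 0. In each of these genes the 3 day 5 samples lay close together and far below the 3 day 0 samples. The losses were 24.1-fold for Tfcp2l1, 22.9-fold for Esrrb and 19.0-fold for Zfp42, with log2 changes of -4.59, -4.51 and -4.25 and limma adjusted p-values of 2.78e-11, 3.96e-11 and 3.63e-12.

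Prdm14, which recruits repressors to FGF receptor genes and to the genes of DNA methyltransferases, had the smallest measured change of the 10. Its values were 3.70, 3.75 and 4.05 at day 5, against 5.90, 5.80 and 5.89 at day 0, a 4.08-fold loss (change -2.03, SE 0.134, limma, adjusted p = 1.23e-08). The groups did not overlap. The day 5 mean of 3.83 lay just above the receptor mark of 3.69, which limited the fall that could be measured. Probe sets differ in how well they bind, so the levels of different genes are not compared here.

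Nanog was lost in 2 steps. Its values were 7.68, 7.30 and 7.27 in day 5 Kdr+ cells, against 10.23, 9.83 and 9.88 at day 0. The day 5 samples were lower than every day 0 sample and still far above the low end of the scale. The loss to day 5 was 5.90-fold (change -2.56, SE 0.186, limma, adjusted p = 3.6e-08). At day 13 the values were 4.08, 3.37 and 3.91 in GFP+ cells and 4.53, 4.52 and 4.19 in GFP- cells. Every day 13 sample lay below every day 5 sample. The further change was -3.63 in GFP+ cells (12.4-fold, SE 0.186, limma, adjusted p = 1.01e-09) and -3.01 in GFP- cells (8.04-fold, limma, adjusted p = 1.31e-08). From day 0 the whole loss was 73.2-fold in GFP+ and 47.4-fold in GFP- cells. The GFP+ mean of 3.79 lay just above the receptor mark of 3.70, and the sample at 3.37 below it. This limited the fall that could be measured in GFP+ cells, so the losses in the sorts are not ranked. Both day 13 comparisons use the same 3 day 5 samples.

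The Klf factors fell with the rest at day 5. Klf4, one of the factors used to reprogram somatic cells, had 4.54, 4.31 and 4.53 at day 5, against 8.73, 8.50 and 8.44 at day 0. Klf5 had 5.74, 5.23 and 5.43 at day 5, against 8.83, 8.57 and 8.64 at day 0. Klf2, whose product stabilises the naive state when ERK signalling is blocked, had 4.16, 4.28 and 4.23 at day 5, against 6.85, 7.12 and 6.97 at day 0. The samples of each group lay close together and the groups did not overlap. The losses were 17.1-fold for Klf4 (change -4.09, limma, adjusted p = 2.78e-11), 9.29-fold for Klf5 (-3.22, adjusted p = 1.09e-09) and 6.76-fold for Klf2 (-2.76, adjusted p = 2.73e-10).

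**Figure D2:**
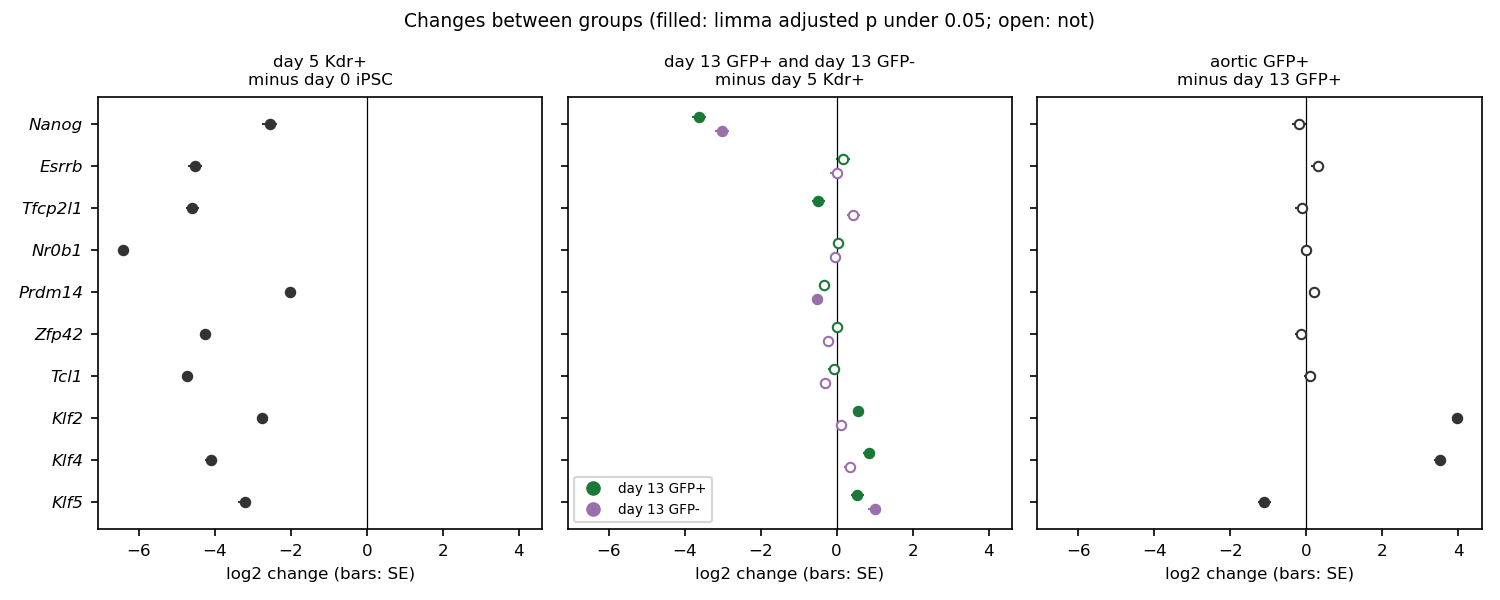
Log2 change of each of the 10 genes (points, bars are SE) for day 5 Kdr+ minus day 0 iPSC, for each day 13 sort minus day 5 Kdr+, and for aortic GFP+ minus day 13 GFP+, 3 samples per group, with filled points where the limma adjusted p is under 0.05. All 10 points of the first panel are filled and lie between -6.42 and -2.03, while in the last panel Klf2 (3.96) and Klf4 (3.52) stand far to the right and Klf5 (-1.11) to the left.

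Other genes around the naive core were counted by list at day 5. Of 15 other factors of the pluripotency network, 9 fell, 1 rose and 5 did not pass the test, with a median change of -0.75. Utf1, a chromatin factor, fell by 5.48 and Sox2, the partner of Oct4, by 4.30 on the log2 scale, and Tbx3 rose by 1.26. Pou5f1, which encodes Oct4, fell by 1.56. Of 13 effector genes of the naive state and the germline, 11 fell and 1 rose, with a median of -3.00. Dnmt3l, a cofactor of DNA methyltransferases, changed by -5.85 and Fbxo15 by -5.41, while the RNA-binding protein gene Lin28a rose by 1.21. Tdgf1, a co-receptor for Nodal, changed by -0.48 (limma, adjusted p = 0.159).

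Of 10 genes of the formative and primed states, 6 rose and 1 fell at day 5, with a median of 0.85. Lef1, a WNT effector, rose by 3.73, Lin28b by 2.49 and Fgf5, a mark of the epiblast, by 1.37. Of 16 genes for the LIF, WNT and ERK inputs, 6 rose and 4 fell. Fgf4, the autocrine signal of pluripotent cells, changed by -4.55 and the LIF feedback gene Socs3 by -1.63, whereas the receptor genes Fgfr2 and Lifr rose by 2.08 and 1.42. Each list is described by its counts and median, with no test of the list itself.

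At day 13 all 10 genes were still below their day 0 levels, with small rises since day 5 of Klf2, Klf4 and Klf5 in GFP+ cells and of Klf5 in GFP- cells. Relative to day 0, all 10 genes were lower in GFP+ cells, where 19.8% of all probe sets were called lower, and all 10 were lower in GFP- cells, where 17.7% were. Relative to day 5, 3 genes rose and 2 fell in GFP+ cells, in a comparison that called 14.3% of all probe sets higher and 16.9% lower. In GFP- cells 1 gene rose and 2 fell, where 12% of all probe sets were higher and 13.9% lower. Nr0b1, Esrrb, Zfp42 and Tcl1 did not pass the test in either sort, and their sample values at day 13 ran between 2.21 and 3.44.

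Klf4 had 5.32, 5.27 and 5.34 in GFP+ cells at day 13, against 4.54, 4.31 and 4.53 at day 5. The GFP+ samples lay in a narrow band above all day 5 samples. The rise was 1.80-fold (change 0.85, SE 0.158, limma, adjusted p = 0.000466). Klf2 had 4.66, 4.82 and 4.84 in GFP+ cells, against 4.16, 4.28 and 4.23 at day 5, a 1.47-fold rise without overlap (change 0.55, limma, adjusted p = 0.00341). In GFP- cells the changes were 0.35 for Klf4 (adjusted p = 0.134) and 0.10 for Klf2 (adjusted p = 0.692), neither past the limma threshold. The Klf4 values there were 4.86, 5.00 and 4.55, each above all day 5 samples. After cyclic loess scaling the Klf4 change in GFP- cells passed (0.44, limma, adjusted p = 0.0359).

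Klf5 rose in both sorts. Its values were 5.98, 6.19 and 5.84 in GFP+ cells and 6.40, 6.56 and 6.45 in GFP- cells, against 5.74, 5.23 and 5.43 at day 5. Every day 13 sample lay above every day 5 sample. The rise was 1.45-fold in GFP+ cells (change 0.54, limma, adjusted p = 0.0241) and 2.01-fold in GFP- cells (change 1.01, limma, adjusted p = 0.000318). The call in GFP+ cells was lost without day 5 replicate 5 (adjusted p = 0.125), without day 5 replicate 6 (0.0711) and without GFP+ replicate 5 (0.109). These day 13 levels were still 6.39-fold below day 0 in GFP+ cells and 4.62-fold below it in GFP- cells.

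Tfcp2l1 and Prdm14 made the remaining calls. Tfcp2l1 had 3.17, 3.36 and 3.34 in GFP+ cells and 4.09, 4.61 and 3.95 in GFP- cells, against 3.52, 3.83 and 3.97 at day 5. The GFP+ samples lay below and the GFP- samples partly above the day 5 samples. The GFP+ mean of 3.29 lay below the receptor mark of 3.70, and the day 5 mean of 3.77 just above its mark of 3.69. The change was -0.48 in GFP+ cells (limma, adjusted p = 0.0482) and 0.44 in GFP- cells (limma, adjusted p = 0.0836, or 0.0413 without GFP- replicate 6). The call in GFP+ cells was lost when any of 5 of the samples was left out, day 5 replicates 5 and 6 and each GFP+ replicate, with adjusted p between 0.0765 and 0.194. Prdm14 changed by -0.51 in GFP- cells (limma, adjusted p = 0.00885), lost without day 5 replicate 6 (0.0596), and by -0.33 in GFP+ cells (adjusted p = 0.0751, or 0.0473 with the replicate number as a block over the cultured samples). Its means of 3.32 in GFP- and 3.50 in GFP+ cells lay below the receptor mark.

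Set directly against each other, the day 13 sorts differed in 1 of the 10 genes, in a comparison that called 4.53% of all probe sets. Tfcp2l1 was 1.90-fold lower in GFP+ than in GFP- cells, with no overlap (change -0.93, SE 0.177, limma, adjusted p = 0.00599). Its GFP+ mean of 3.29 lay below the receptor mark of 3.70 and its GFP- mean was 4.22, so the difference lies near the low end of the scale. In a fit on these 6 samples alone its adjusted p was 0.0566. Klf2 (0.45), Klf4 (0.50), Prdm14 (0.18), Nanog (-0.63) and Klf5 (-0.47) also had groups that did not overlap, without passing the test with all samples (Klf2 did without GFP- replicate 6, adjusted p = 0.0299, and Nanog without GFP+ replicate 3, adjusted p = 0.0368), and 19.5% of all probe sets had such groups. Equal replicate numbers deviated together at day 13, and numbers 5 and 6 also did so with each other. With the replicate number as a block on the day 13 samples alone, 7.13% of all probe sets were called, and 3 of the 10 genes were: Tfcp2l1 (limma, adjusted p = 0.00284), Klf2 (0.0406) and Nanog (0.0491).

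Markers of several cell types moved with this comparison. Of 11 markers of epithelium and endoderm, 10 were lower in GFP+ cells, among them Apob (-3.50), Cdh1 (-2.76) and Epcam (-2.15). Their summed level, on a log2 scale, was 8.37 to 8.81 in GFP+ cells, where 8 of the 11 lay above the 95th percentile of the receptor genes, and 10.40 to 10.51 in GFP- cells, where all 11 did. Of 9 endothelial markers 3 were lower in GFP+ cells, Cdh5 (-2.10), Tek (-1.44) and Pecam1 (-1.28), with a summed log2 level of 7.86 to 8.16 in GFP+ cells and 8.42 to 8.89 in GFP- cells. Of 7 markers of mesoderm progenitors 2 were lower in GFP+ cells, Eomes (-2.43) and Mixl1 (-1.63). Of 8 smooth muscle markers 2 were higher in GFP+ cells, 1 was lower and 5 did not pass the test. Actg2 (mean 6.92 in GFP+ and 5.33 in GFP- cells) and Tagln (9.39 and 8.35) were higher, and Myocd (5.53 and 6.97) was lower. The part of these cell types in the differences between the sorts was not tested. Other pluripotency factors were lower in GFP+ cells as well, 4 of 15 in count, among them Sall4 (-2.13), Mycn (-1.72) and Sox2 (-1.23). Of the formative and primed genes, 4 of 10 were lower in GFP+ cells and none was higher, with Otx2 at -2.13 and Fgf5 at -2.08.

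In aortic GFP+ cells Klf2 and Klf4 were high, Klf5 was at its lowest and the other 7 genes were at the low end. Klf2 had 8.84, 8.70 and 8.66 in aortic cells, against 4.66, 4.82 and 4.84 in day 13 GFP+ cells. Klf4 had 9.16, 8.77 and 8.55 in aortic cells, against 5.32, 5.27 and 5.34 in day 13 GFP+ cells. Both genes were far higher in each aortic sample than in any day 13 sample. The differences were 15.5-fold for Klf2 (change 3.96, SE 0.13, limma, adjusted p = 2.95e-12) and 11.4-fold for Klf4 (3.52, SE 0.158, limma, adjusted p = 9.74e-11). The comparison called 17.7% of all probe sets higher and 19.5% lower, and of the 10 genes 2 were higher and 1 lower in the aorta.

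Klf5 was the one that was lower. Its values were 4.60, 5.27 and 4.81 in aortic cells, against 5.98, 6.19 and 5.84 in day 13 GFP+ cells, with no overlap and a 2.16-fold difference (change -1.11, limma, adjusted p = 8.51e-05). The other 7 genes did not pass the test between aortic and day 13 GFP+ cells. Against day 13 GFP- cells 4 genes were higher and 3 lower in the aorta, where 20.2% of all probe sets were higher and 21.7% lower. Klf2 was 21.2-fold and Klf4 16.2-fold higher there, and Klf5 (-1.58), Tfcp2l1 (-1.06) and Nanog (-0.81) were lower. The aortic means of Tfcp2l1 (3.16) and Nanog (3.60) lay below the receptor mark of 3.98, so these 2 differences lie near the low end of the scale. The small differences of Prdm14 (0.39, limma, adjusted p = 0.0303) and Esrrb (0.47, limma, adjusted p = 0.0485) rested on low values. The Prdm14 call was lost without GFP- replicate 3 or 6 or aortic replicate 2 (limma, adjusted p 0.055 to 0.14), and that of Esrrb without GFP- replicate 5 or 6 or aortic replicate 2 or 3 (0.0874 to 0.229).

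Against day 5 Kdr+ cells, Klf2 was 22.8-fold and Klf4 20.6-fold higher in the aorta. Of the 10 genes 3 were higher and 3 lower, where 22.3% of all probe sets were higher and 23.7% lower. The lower ones were Nanog (-3.82), Tfcp2l1 (-0.61) and Klf5 (-0.57), and the aortic means of Nanog and Tfcp2l1 lay below the receptor mark. The Tfcp2l1 call was lost without day 5 replicate 6 (limma, adjusted p = 0.0502). Against these 6 calls, runs with a sample left out gave 4 to 5. Esrrb, the remaining higher gene (0.47, limma, adjusted p = 0.0447), had both means below the receptor mark. Its call was lost without day 5 replicate 5 or 6 or aortic replicate 2 or 3 (limma, adjusted p 0.107 to 0.172). It was also lost with array weights (0.055), median centring (0.178), quantile normalization (0.179) and cyclic loess (0.199). Against day 0, 8 of the 10 genes were lower in the aorta and 1 was higher, where 24.4% of all probe sets were lower and 23.3% higher. Klf2 was the one that was higher. Its aortic level exceeded the day 0 level 3.37-fold (change 1.75, limma, adjusted p = 1.15e-08). Klf4 differed by 0.27 (SE 0.158, 95% interval -0.06 to 0.61, limma, adjusted p = 0.174) with aortic values of 9.16, 8.77 and 8.55, against 8.73, 8.50 and 8.44 at day 0. After cyclic loess scaling the Klf4 difference was 0.53 (adjusted p = 0.00758). Klf5 was 13.8-fold lower in the aorta than at day 0, and Nanog, whose aortic mean lay below the receptor mark, at least 83.2-fold lower.

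The order of the 5 group means was the same for Klf2 and Klf4 and another for Klf5. Mean log2 levels of Klf2 were 8.73 ± 0.096 in aortic cells, 6.98 ± 0.132 at day 0, 4.22 ± 0.0587 at day 5, 4.77 ± 0.101 in day 13 GFP+ cells and 4.32 ± 0.239 in day 13 GFP- cells (SD, n = 3 each). Aorta and day 0 each stood apart from the next group in that order, and the lower 3 ran GFP+, GFP- and day 5 without a difference between neighbours that passed the test. Klf4 averaged 8.83 ± 0.305 in aortic cells, 8.55 ± 0.155 at day 0, 4.46 ± 0.126 at day 5, 5.31 ± 0.0338 in GFP+ cells and 4.81 ± 0.231 in GFP- cells. Klf5 averaged 4.89 ± 0.344 in aortic cells, 8.68 ± 0.135 at day 0, 5.46 ± 0.258 at day 5, 6.00 ± 0.175 in GFP+ cells and 6.47 ± 0.08 in GFP- cells. For Klf5 day 0 was highest and the aorta lowest, and of the 4 steps in its order only that between GFP- and GFP+ cells did not pass the test (adjusted p = 0.174). The lowest step, aorta against day 5 (-0.57, limma, adjusted p = 0.0123), was lost after cyclic loess scaling (-0.21, adjusted p = 0.413). In separate runs on the deposited values it was also lost without day 5 replicate 3 (limma, adjusted p = 0.074) and without aortic replicate 1 (0.063).

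The low end of the scale was marked by 1350 olfactory and vomeronasal receptor genes, most of which these cells are not known to use. Their 95th percentile lay at 3.98 in aortic cells, 3.86 at day 0, 3.69 at day 5, 3.70 in GFP+ cells and 3.65 in GFP- cells. The number of genes with a group mean above that mark was 3 in aortic cells (the 3 Klf genes), 10 at day 0, 6 at day 5, 4 in GFP+ cells (Nanog and the 3 Klf genes) and 5 in GFP- cells (those and Tfcp2l1). Changes between values near that end understate true ratios, since RMA values flatten there.

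The Klf and Sp family share a zinc finger domain that reads GC-rich boxes. Of the 23 other Klf and Sp genes, 3 rose and 5 fell at day 5, with a median change of -0.10. Klf9, a gene induced by glucocorticoids, changed by -3.03, Klf10, a TGF-beta response gene, by -1.47 and Klf12 by 1.90. Between day 13 GFP+ cells and day 5, 7 of the 23 rose and 7 fell, among them Klf8 (-2.50), Klf15 (-2.35) and Klf7 (1.59). Between aortic and day 13 GFP+ cells 10 were higher and 2 lower in the aorta, with a median of 0.33 against 0.07 for all probe sets. Klf15, which restrains growth of cardiac and smooth muscle, was at least 9.06-fold higher in the aorta, since its mean of 3.27 in day 13 GFP+ cells lay below the receptor mark, and Klf9 was 5.74-fold higher, while Sp6 (-1.76) and Klf10 (-1.11) were lower. Klf9 fell at day 5 and was high in the aorta like Klf2 and Klf4, and it differed between aorta and day 0 by 0.11 (limma, adjusted p = 0.624).

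**Figure D3:**
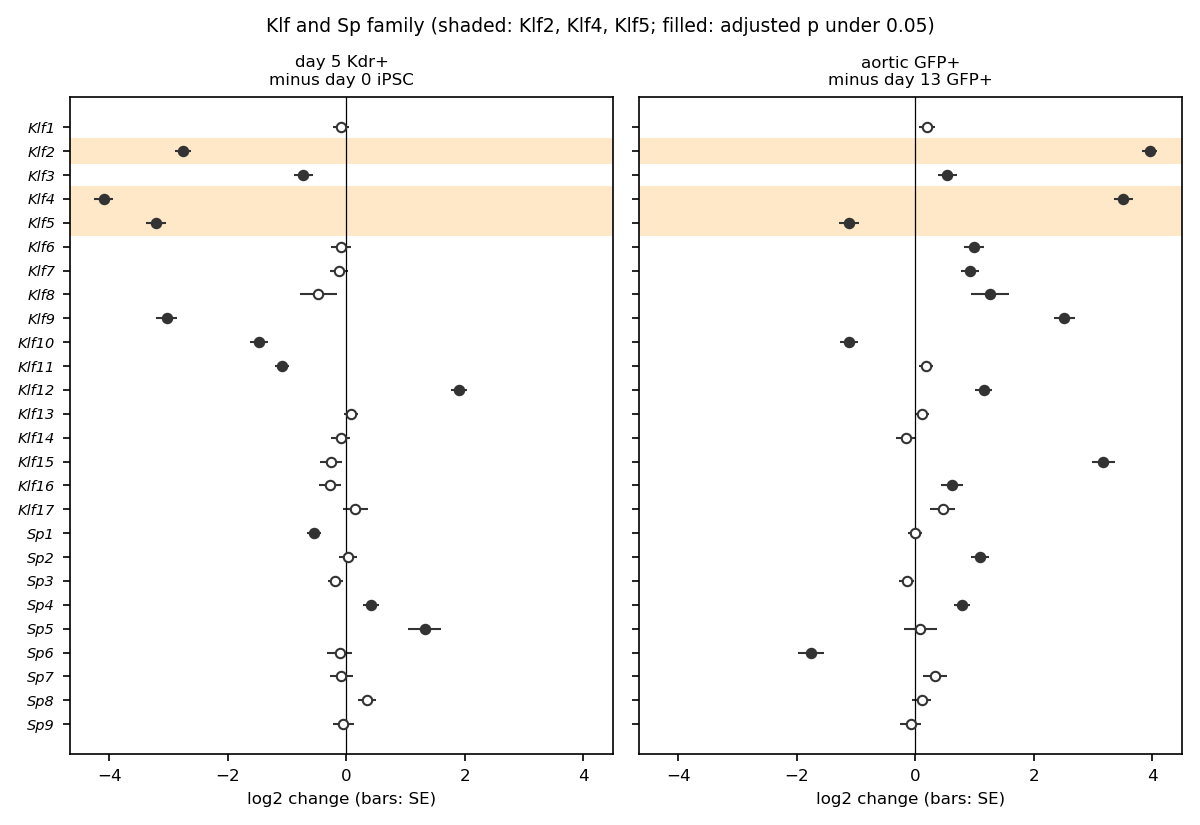
Log2 change (horizontal axis, bars are SE) of 26 Klf and Sp genes for day 5 Kdr+ minus day 0 iPSC and for aortic GFP+ minus day 13 GFP+, 3 samples per group, with Klf2, Klf4 and Klf5 shaded and points filled where the limma adjusted p is under 0.05. Klf2 (3.96), Klf4 (3.52), Klf15 (3.18, with a day 13 level below the receptor mark) and Klf9 (2.52) lie to the right in the aortic panel.

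Immediate early genes were set beside Klf2 and Klf4. These genes, such as Fos and Egr1, respond within minutes to growth factors, stress and enzymatic dissociation of tissue, and Klf2 and Klf4 are themselves known to respond to such stimuli. All 10 immediate early genes of the list fell at day 5 (median -1.45), among them Fos (-3.38) and Egr1 (-2.97). All 10 rose between day 5 and day 13 in GFP+ cells (median 1.62) and in GFP- cells (median 1.17). In GFP- cells Klf2 did not pass, and Klf4 passed only after cyclic loess scaling. Against day 0, 3 rose and 2 fell in GFP+ cells and 1 rose and 3 fell in GFP- cells, while Klf2 and Klf4 were lower in both. All 10 were higher in aortic than in day 13 GFP+ cells (median 3.50), with Atf3 37.7-fold higher and Fos at 3.76, and all 10 were higher in the aorta than at day 0 (median 3.14), where Klf4 did not pass. Their summed log2 level was 13.93 to 14.15 in aortic cells, 10.78 to 11.16 at day 0, 8.72 to 9.08 at day 5, 10.27 to 10.81 in GFP+ cells and 10.16 to 10.39 in GFP- cells. The part of such a response in the levels of Klf2 and Klf4 was not tested.

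**Figure D4:**
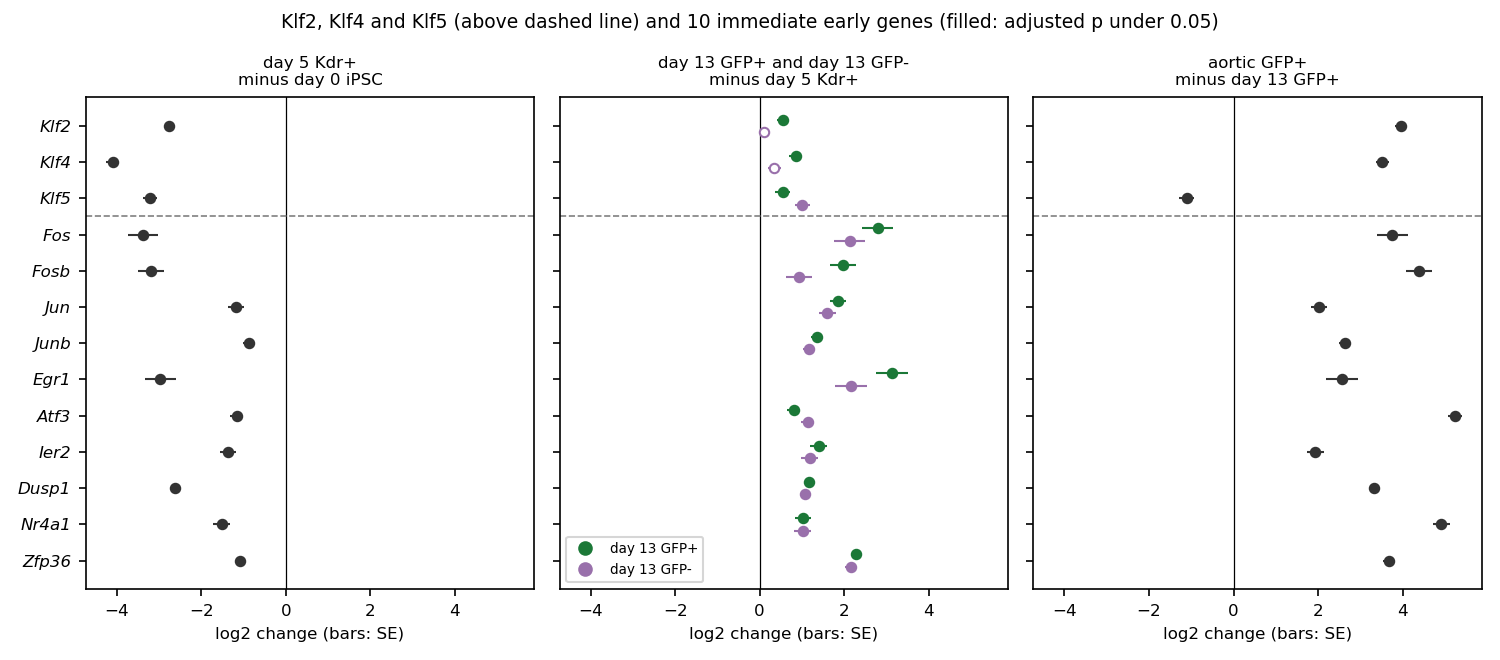
Log2 change (horizontal axis, bars are SE) of Klf2, Klf4 and Klf5, above the dashed line, and of 10 immediate early genes for day 5 Kdr+ minus day 0 iPSC, each day 13 sort minus day 5 Kdr+, and aortic GFP+ minus day 13 GFP+, 3 samples per group, filled where the limma adjusted p is under 0.05. The immediate early genes lie left of 0 in the first panel and right of 0 in the others, and Klf5 (-1.11) is the one gene left of 0 in the last.

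Markers of other cells were also higher in the aortic samples, and Klf2 and Klf4 are known to be expressed in endothelium and myeloid cells. Among 9 endothelial markers, 8 in aortic and 5 in day 13 GFP+ cells lay above the receptor mark, with a summed log2 level of 9.41 to 9.67 in aortic cells and 7.86 to 8.16 in day 13 GFP+ cells. Of the 9, 6 were higher in the aorta, among them Pecam1 (3.74) and Cdh5 (1.74), and 3 did not pass the test. Among 6 leukocyte markers, 4 in aortic and 3 in day 13 GFP+ cells lay above the mark, with sums of 7.91 to 8.88 in aortic and 7.28 to 7.38 in day 13 GFP+ cells. Of the 6, 5 were higher in the aorta, with a median change of 1.11, and 1 did not pass the test. Among the 5 were Cd14 (mean 6.39, against 3.12 in day 13 GFP+ cells) and Laptm5 (5.99, against 4.77). Ptprc and Adgre1 lay below the mark in both groups, although Ptprc was among the 5. The part of endothelial and leukocyte RNA in the aortic Klf2 and Klf4 levels was not tested. All 8 markers of smooth muscle, the labelled cell type, were higher in aortic than in day 13 GFP+ cells.

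Of the 16 genes for the LIF, WNT and ERK inputs, 4 were higher and 4 lower in aortic than in day 13 GFP+ cells. Socs3 was higher by 2.64, Fgfr2 by 1.30 and Lifr by 0.62, while Etv4 (-0.98), Ctnnb1 (-0.87) and Lif (-0.48) were lower. Stat3, which carries the LIF signal, was higher by 2.31 in day 13 GFP+ cells than at day 5 and did not differ past the threshold between aortic and day 13 GFP+ cells (-0.30, limma, adjusted p = 0.107). Of the other pluripotency factors 13 of 15 were lower in the aorta than at day 0 and Stat3 was the 1 that was higher, and of the effector genes 12 of 13 were lower. Tet2, a DNA demethylase gene of the effector list, fell with the core at day 5 (-3.66) and rose again between day 5 and day 13 GFP+ cells (2.41).

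The profiles of the 10 genes over the 15 samples were set against those of all other probe sets by Pearson's r, which here mostly reflects the 5 group means. The 7 genes that are not Klf factors correlated with each other at 0.785 to 0.997. Klf2 and Klf4 correlated at 0.955, and Klf2 and Klf5 at 0.00. The closest profile to Nr0b1 was Mep1b (r = 0.998), to Zfp42 Xlr3c (0.997), to Esrrb Fam178b (0.993), to Tfcp2l1 Mreg (0.992), to Nanog D7Ertd143e (0.991) and to Prdm14 Pramel13 (0.986). Tcl1 was closest to Nr0b1 (0.997), another of the 10. Klf2 was closest to Sh3rf2 (0.986), Klf4 to Aldh6a1 (0.979) and Klf5 to Dclk2 (0.977), so the 3 Klf genes had no nearest profile in common.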

How the data were processed

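Per the submitters' processing notes, the authors normalised the arrays by RMA, with the package affy (1.36.1) and R (2.15.1). The deposited table holds log2 values, 1 per probe set and sample, a scale taken from their range. RMA equalises the distribution of probe values between arrays before it summarises them, so changes are relative to the average gene. Neither the genome build nor scan dates are given in the sources used here, and batches of arrays could not be looked for. Sample medians lay between 4.08 and 4.29, and 0 pairs of samples were identical. The number of arrays limits the precision.

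Probe sets were named through their Entrez Gene ID from RefSeq (GRCm38.p6), 23740 of 25206. All 15 samples entered 1 limma model (3.58.1, R 4.3.3) with a mean per group and empirical Bayes moderation. The 10 pairwise comparisons share samples. Benjamini-Hochberg adjustment ran over all probe sets of a comparison, with a threshold of 0.05, and no value was filtered. Errors of changes are standard errors. The model was tested on simulated data. The 10 genes and the gene lists were chosen with earlier results of these data known. All 10 genes are described. From each list at most 4 genes that passed the test were named by size of change, and Pou5f1, Tbx3, Lin28a, Tdgf1, Tet2, Klf9, Klf10, Lif, Lifr and Stat3 were named in a comparison outside that rule after their values were seen.

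Replicate numbers were checked by correlating deviations from the group means across genes. At day 13 equal numbers correlated at 0.397 to 0.597 and unequal numbers at -0.5 to 0.345. At the other stages equal numbers correlated at -0.091 to 0.079. The pairing at day 13 therefore comes from the data and the shared numbers. Alternatives were other scalings, variance models, a filter, array weights, a replicate block and leaving out samples.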

Additional observations from a re-analysis of the deposited data

Results flagged for a closer look

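The log2 difference of Tfcp2l1 from day 5 was -0.48 in GFP+ cells (limma, adjusted p = 0.0482, lost when any of 5 samples was left out) and 0.44 in GFP- cells, which did not pass (adjusted p = 0.0836). The difference between the sorts, tested itself, was -0.93 for GFP+ minus GFP- (limma, adjusted p = 0.00599, or 0.0566 in a fit on the 6 samples alone). All 3 GFP+ samples lay below all 3 GFP- samples. The GFP+ mean of 3.29 was below the receptor mark of 3.70, so these differences lie near the low end of the scale.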

How the results depend on the processing

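No change of the 10 genes that passed the threshold reversed its direction under any alternative run, while changes near 0 that did not pass took either sign. The Prdm14 change in GFP+ cells against day 5 passed with array weights (adjusted p = 0.0101), median centring (0.0141), repeated quantile normalization (0.0215), cyclic loess (0.0289) and the replicate block (0.0473). The count of 10 genes called lower at day 5 and in each day 13 sort against day 0 was the same under every alternative that kept all 10 in the fit and under every left-out sample. With probe sets above the median level, which kept 5 of the 10, it was 5 in each, and 4 were called between aorta and day 0. That filter used the mean of each probe set over all 15 samples, day 0 included. A high day 0 value could carry a gene through it, so these counts add no separate support for the fall. With treat, which asks for a log2 change beyond 1, the count was 1 in GFP+ and 1 in GFP- cells against day 5, and 3 for the aorta against GFP- cells and 3 against day 5.

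Between the day 13 sorts, where 1 gene was called, limma on the 2 groups alone called 0 (5 at an unadjusted p under 0.05), treat 0 (0 unadjusted), array weights 5, cyclic loess 3, the filter on the median level 3, the replicate block over the 12 cultured samples 3, and the block on the day 13 samples alone, added after the data were seen, 3. The replicate block over the cultured samples changed no other count past 1.5 times, and no block was possible for the aortic samples, which share fewer than 2 numbers with the others. Without both day 13 samples numbered 3, also added after the data were seen, 3 genes were called in GFP+ cells against day 5.

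Leaving out each sample in turn gave 10 to 10 calls for day 5 and both sorts against day 0, 9 to 9 for aorta against day 0, 2 to 4 for GFP- and 3 to 5 for GFP+ cells against day 5, 4 to 5 for aorta against day 5, 1 to 2 between the sorts, 5 to 8 for aorta against GFP- and 3 to 3 against GFP+ cells. Of 600 single values so recomputed, 573 kept their side of the threshold, 23 lost it and 4 gained it. Another scaling moved the median of all probe sets by at most 0.153 and a change of the 10 genes by at most 0.382. Changes near the low end of the array's signal are limited by it. Where a call was lost the cause was not tested.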
